A study of Mus musculus with 4 samples.

Results

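The glucagon-secretin family comprises peptide hormones and neuropeptides that share a related N-terminal region and act on class B G protein-coupled receptors. 10 of its genes were followed here, 5 that encode peptide precursors (Gcg, Gip, Sct, Vip and Adcyap1) and 5 that encode receptors (Gcgr, Glp1r, Gipr, Sctr and Vipr1). They were found by gene symbol, and all 10 had a row among the 20377 genes of the deposited table. The data come from gallbladder cells of 8-week-old mice on a C57BL/6 background that carry B6.Cg-Tg(Ins1-EGFP)1Hara/J, known as MIP-GFP, a transgene in which an Ins1 promoter drives green fluorescent protein. After expansion in culture, the cells received Pdx1, Ngn3 (Neurog3), Mafa and PAX6 together with compounds that the labels do not name, over 10 days. GFP-positive cells were sorted, and RNA sequencing gave 4 libraries of the single group rGBC2, numbered 1 to 4. The labels do not say whether the libraries came from separate animals or cultures, so p-values measure only the spread between these libraries, part of which may be technical.

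The precursors are cut by prohormone convertases. Gcg yields glucagon in pancreatic alpha cells, where PCSK2 acts, and glucagon-like peptides in gut L cells, where PCSK1 acts. Gip is the product of duodenal K cells and Sct of duodenal S cells, whereas Vip and Adcyap1 are chiefly neuronal. The receptors couple mainly to the stimulatory G protein and raise cAMP. The glucagon, GLP-1 and GIP receptors act in islets, and the GLP-1 and GIP receptors raise glucose-dependent insulin secretion. The secretin receptor of bile duct cells stimulates bicarbonate secretion.

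The 250 bases before the transcript start are shown for the 3 peptide genes that proved abundant and for Vip, which was listed at 0 throughout. Sequences are from RefSeq on GRCm38.p6, written 5′ to 3′ on the gene's strand, and capitals mark every E-box (CANNTG, the class of site that Neurog3 and Neurod1 recognise, whose pattern reads the same on both strands). Of the 10 genes, 8 had an entry.
Gcg (chr2:62483654-62483903, minus strand): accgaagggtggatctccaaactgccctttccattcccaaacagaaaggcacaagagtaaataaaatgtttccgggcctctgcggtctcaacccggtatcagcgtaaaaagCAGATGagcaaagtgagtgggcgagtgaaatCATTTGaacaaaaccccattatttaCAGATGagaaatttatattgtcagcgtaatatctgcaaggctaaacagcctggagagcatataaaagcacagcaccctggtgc
Gip (chr11:96024295-96024544, plus strand): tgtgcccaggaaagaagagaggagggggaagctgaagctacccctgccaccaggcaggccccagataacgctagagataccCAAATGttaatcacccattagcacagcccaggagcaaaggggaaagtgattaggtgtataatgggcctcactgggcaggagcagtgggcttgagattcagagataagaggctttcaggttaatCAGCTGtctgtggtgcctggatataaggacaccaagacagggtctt
Sct (chr7:141279134-141279383, minus strand): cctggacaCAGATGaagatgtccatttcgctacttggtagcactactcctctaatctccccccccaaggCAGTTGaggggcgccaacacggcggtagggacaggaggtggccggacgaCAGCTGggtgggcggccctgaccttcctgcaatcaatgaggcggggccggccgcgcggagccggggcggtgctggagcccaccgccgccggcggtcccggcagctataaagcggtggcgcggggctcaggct
Vip (chr10:5638968-5639217, plus strand): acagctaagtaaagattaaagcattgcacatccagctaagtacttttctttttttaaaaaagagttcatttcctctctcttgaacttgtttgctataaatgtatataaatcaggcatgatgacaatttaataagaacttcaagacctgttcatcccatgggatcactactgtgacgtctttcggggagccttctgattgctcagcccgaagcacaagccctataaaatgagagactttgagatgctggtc
In these windows Gcg held 3 E-boxes, Gip 2, Sct 3 and Vip 0, and 66.2% of all 32851 promoter windows of this length held at least 1. Counting from the start site, the E-boxes of Gcg begin at -139, -108 and -83, those of Gip at -169 and -46, and those of Sct at -242, -181 and -132. TAAT, the core of many homeodomain sites, searched on both strands, occurred 2 times in Gcg, 5 times in Gip, 1 time in Sct and 2 times in Vip, and 54.9% of all windows held it. None of these TAAT matches overlapped an E-box. TGACG, the core of cAMP response elements, occurred in the Vip window at -79 and in none of the other 3, against 17.8% of all windows. These matches describe the letters of the windows only.

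The libraries held an estimated 22.1 M to 33.1 M reads each. RPKM, a read count divided by transcript length and by the library's mapped reads, is the scale of every level below. Ins2, a defining gene of the labelled insulin-producing cells, stood at 1091, 3704, 3851 and 4240 RPKM in replicates 1 to 4, in cells sorted on an insulin promoter. Replicates 3 and 4 differed from each other by a root mean square of 0.16 on the log2(RPKM + 1) scale over genes at 1 RPKM or more in both, while the other pairs of libraries differed by 0.52 to 0.76. Replicates 1 and 2 held transcripts of the Y-linked gene Eif2s3y (48.5 and 44.7 RPKM), which was listed at 0 in replicates 3 and 4. A listing at 0 or a low value need not mean absence or low expression, since Gapdh, which every cell uses, stood at 0.2, 0, 0.04 and 0.03 RPKM. Every call below 1 RPKM in the tests that follow carries the same limit. RPKM levels of genes with a 0 in any library are therefore printed without a mean. Such genes still enter the tests, medians, order of levels and differences between genes below.

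Gcg, Gip and Sct were abundant, Glp1r was present at a moderate level, and the other receptors and peptides were near or below 1 RPKM. With 1 group, each gene's mean log2(RPKM + 1) was tested against 1 RPKM with limma's moderated test and Benjamini-Hochberg adjustment over 16919 genes. Of the 10 genes, 4 lay above 1 RPKM, where 65.0% of all genes tested did, and 4 lay below, where 26.1% did. Gipr passed in neither direction, and Vip, at 0 in every library, was not tested. The median over the 10 genes, with Vip at 0 included, was 1.15 RPKM. Over all genes tested, which leave out those at 0 in every library, the median was 6.99 RPKM. Among the peptides 3 lay above and 1 below, and among the receptors 1 lay above and 3 below.

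**Figure D1:**
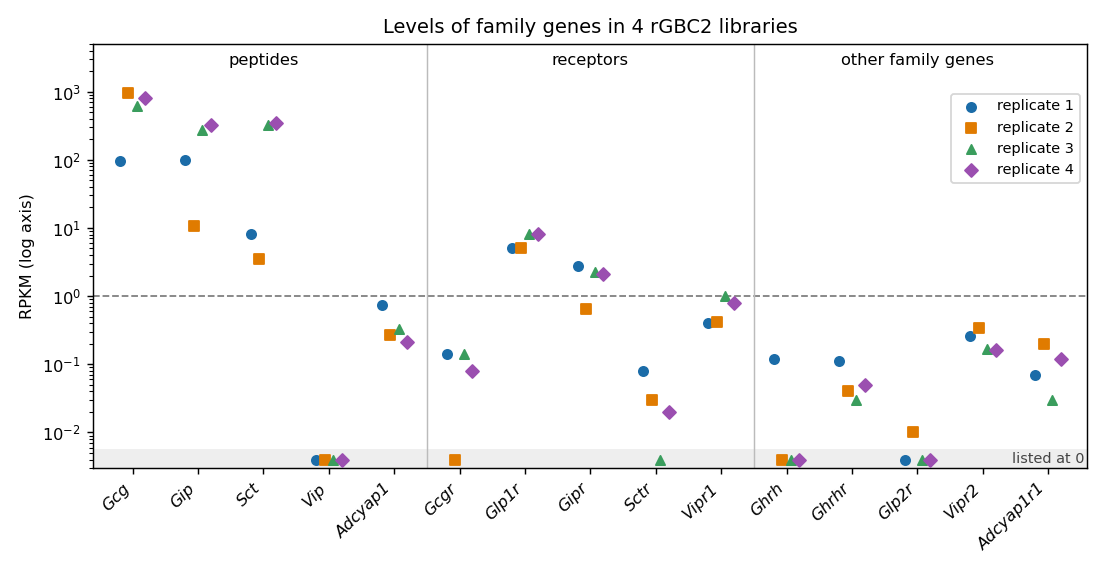
RPKM of 15 family genes in each of the 4 libraries, on a log axis, with peptides, receptors and the other family genes side by side. Each point is 1 library, the dashed line is 1 RPKM, and points in the grey band are listed at 0. Gcg reaches 942 RPKM, Glp1r lies between 5.02 and 8.26 RPKM, and the other family genes all lie at or below 0.34 RPKM.

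Gcg, the proglucagon gene (NM_008100, mm9 chromosome 2 from 62312586 to 62321710, minus strand), was measured at 95.7, 942, 612 and 818 RPKM in replicates 1 to 4. Replicate 1 was 9.85-fold lower than replicate 2, the highest. Its rank by level among all genes was 867 in replicate 1 and between 43 and 88 in the other 3 libraries. The mean was 617 ± 373 RPKM (SD, n = 4), with a log2 difference from 1 RPKM of 7.85 ± 0.58 (SE; limma, adjusted p = 3.94e-05). Relative to Ins2, the Gcg level was 0.0877, 0.254, 0.159 and 0.193 in replicates 1 to 4. Each library pools many cells, so the data do not say whether Gcg and insulin transcripts lay in the same cells, and fewer cells of a type and less RNA per cell cannot be told apart.

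Gip, which encodes the glucose-dependent insulinotropic polypeptide (NM_008119, mm9 chromosome 11 from 95885858 to 95892142, plus strand), stood at 101, 10.6, 271 and 320 RPKM. Here replicate 2 was the low library, 30.3-fold under replicate 4, and replicate 1 lay between. The mean was 176 ± 145 RPKM (SD, n = 4; limma, adjusted p = 0.000974). Its rank was 7389 in replicate 2 and 221 in replicate 4.

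Sct, the secretin gene (NM_011328, mm9 chromosome 7 from 148464236 to 148465030, minus strand), was at 8.26, 3.45, 323 and 343 RPKM. The highest and lowest libraries differed 99.4-fold, the widest range of the 10 genes among those above 0 in every library. Replicates 1 and 2 were both low and replicates 3 and 4 both high, with no value between 8.26 and 323 RPKM. The mean of 169 ± 189 RPKM (SD, n = 4) was smaller than its SD, and without replicate 4 it was 112 RPKM. Sct nevertheless passed the test on the log scale (limma, adjusted p = 0.0147, and 0.00496 to 0.0425 under 11 alternatives).

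The 3 abundant peptides thus had their lowest values in different libraries, replicate 1 for Gcg and replicate 2 for Gip and Sct. Of their summed RPKM, Gcg made up 46.7%, 98.5%, 50.7% and 55.2% in replicates 1 to 4. Gip made up 49.3%, 1.11%, 22.5% and 21.6%, and Sct 4.03%, 0.361%, 26.8% and 23.2%. Replicate 2 was almost wholly Gcg, replicate 1 held about equal parts of Gcg and Gip with little Sct, and replicates 3 and 4 held all 3. The sum itself was 205, 956, 1206 and 1482 RPKM.

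**Figure D2:**
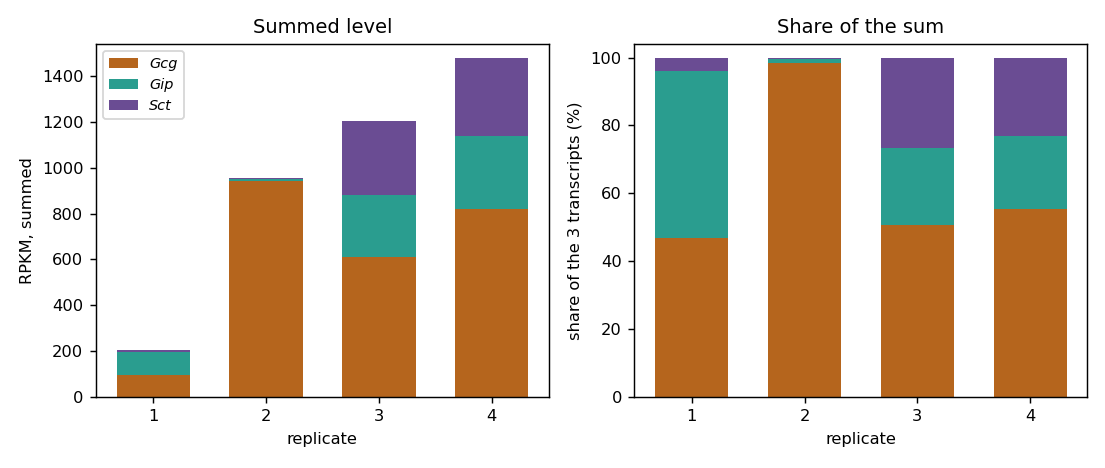
Left, summed RPKM of Gcg, Gip and Sct in each replicate, as stacked bars. Right, the same values as a percentage of their sum, where Gcg takes 98.5% in replicate 2 and 46.7% to 55.2% in the other 3.

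The 3 genes were also set beside genes of like GC content, whose median shows how far genes of that base composition shifted as a whole, and not how widely single genes varied. Sct (59.4% GC) lay at -2.32, -3.38, 2.81 and 2.89 around its own mean of log2(RPKM + 1), while the median of 1476 genes within 2 points of its GC content moved by 0.01, -0.28, 0.14 and 0.13. Gip (53.4% GC) lay at 0.02, -3.12, 1.43 and 1.67, and its 2603 like genes at -0.01, -0.13, 0.06 and 0.10. Gcg (44.8% GC) lay at -2.26, 1.03, 0.41 and 0.83, and its 2057 like genes at 0.20, 0.31, -0.24 and -0.27. The part of base composition and of the Y-linked split in these differences was not tested.

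Vip, vasoactive intestinal peptide (NM_011702, mm9 chromosome 10 from 4698926 to 4707323, minus strand), was listed at 0 in all 4 libraries. The RefSeq entry of GRCm38 places it on the plus strand, and the bearing of this on the zeros was not tested. For its transcript length 3 reads correspond to 0.0592 to 0.0887 RPKM in the 4 libraries, which is the level a count of 0 allows, for counting error only. Adcyap1, which encodes the neuropeptide PACAP (NM_009625, mm9 chromosome 17 from 93598761 to 93604829), was at 0.75, 0.27, 0.33 and 0.21 RPKM and lay below 1 RPKM (limma, adjusted p = 0.00227). Replicate 1 was its highest library.

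Glp1r, the receptor for glucagon-like peptide 1 (NM_021332, mm9 chromosome 17 from 31038811 to 31073455, plus strand), was the most abundant receptor, at 5.02, 5.08, 8.06 and 8.26 RPKM. It had the smallest spread of the 10 genes relative to its mean among those above 0 in every library, 6.61 ± 1.798 RPKM (SD, n = 4), and a range of 1.65-fold. Its log2 difference from 1 RPKM was 1.90 ± 0.19 (SE; limma, adjusted p = 0.000171). Replicates 1 and 2 were the lower libraries, as they were for Sct, but by a far smaller factor.

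Gipr, the GIP receptor (NM_001080815, mm9 chromosome 7 from 19742473 to 19751476, minus strand), was at 2.79, 0.64, 2.29 and 2.14 RPKM. 3 libraries were above 1 RPKM and replicate 2 was below it, the same library in which its ligand Gip was lowest. The level of 1.97 ± 0.926 RPKM (SD, n = 4) passed in neither direction (limma, adjusted p = 0.0820). Without replicate 2 the mean was 2.41 RPKM and the gene lay above 1 RPKM (limma, adjusted p = 0.00805).

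Gcgr, the glucagon receptor (NM_008101, mm9 chromosome 11 from 120392040 to 120400298, plus strand), was at 0.14, 0, 0.14 and 0.08 RPKM and lay below 1 RPKM (limma, adjusted p = 3.64e-06). Sctr, the secretin receptor (NM_001012322, mm9 chromosome 1 from 121903556 to 121960109, plus strand), was at 0.08, 0.03, 0 and 0.02 RPKM, also below (limma, adjusted p = 4.58e-07). 3 reads on the Sctr transcript correspond to 0.0450 to 0.0675 RPKM, and replicate 1 alone exceeded its own value of 0.0621 RPKM. Of 8 markers of biliary epithelium in the same libraries, 6 lay above 1 RPKM, where 65.0% of all genes tested did. They differed widely, with Krt7, a ductal keratin, at 466, 482, 802 and 789 RPKM and Aqp1, a water channel, at 11.3, 17.7, 1.31 and 1.44 RPKM. Sox9, a ductal transcription factor, at 1.20, 0.92, 0.64 and 0.61 RPKM, and Cftr, the chloride channel of bile duct cells, at 0.18, 1.5, 0.01 and 0.02 RPKM, passed in neither direction.

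Vipr1, a receptor shared by VIP and PACAP (NM_011703, mm9 chromosome 9 from 121551833 to 121582072, plus strand), was at 0.40, 0.42, 0.99 and 0.80 RPKM. It lay just below 1 RPKM with a mean of 0.653 ± 0.291 RPKM (SD, n = 4; limma, adjusted p = 0.0400). That call was lost under 7 of 11 alternatives, with adjusted p between 0.0119 and 0.146 over all of them. Its 4 values spanned 2.48-fold, with replicates 3 and 4 the higher ones.

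In order of mean level the genes ran Gcg, Gip, Sct, Glp1r, Gipr, Vipr1, Adcyap1, Gcgr, Sctr and Vip. Within libraries, the steps from Glp1r to Gipr, from Gipr to Vipr1 and from Adcyap1 to Gcgr were larger than their SD and had 1 direction in 4 of 4 libraries. The other 6 steps were smaller than their SD. Sct, for example, lay above Glp1r in 3 libraries and below it in replicate 2.

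The remaining family genes all had low values in the table. Ghrh, growth hormone-releasing hormone, and its receptor Ghrhr, the GLP-2 receptor Glp2r, and the VIP and PACAP receptors Vipr2 and Adcyap1r1 lay below 1 RPKM in 5 of 5 cases, where 26.1% of all genes tested did. Vipr2 was the highest at 0.26, 0.34, 0.17 and 0.16 RPKM. Adcyap1r1, the receptor selective for PACAP, stood at 0.07, 0.20, 0.03 and 0.12 RPKM. Glp2r had 0.01 RPKM in replicate 2 and was listed at 0 in the other 3.

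Each abundant peptide exceeded its receptor in every library. On the log2(RPKM + 1) scale, Gcg exceeded Gcgr by 8.73 ± 1.59 and Glp1r by 5.96 ± 1.39 (SD, n = 4; exact sign-flip permutation p = 0.13 for each). The ratio of Gcg to Glp1r in RPKM was 19.1, 185, 75.9 and 99.1 in replicates 1 to 4. Gip exceeded Gipr by 5.15 ± 1.77, at RPKM ratios of 36.2, 16.5, 119 and 150. Sct exceeded Sctr by 5.49 ± 3.35, where the differences of replicates 1 and 2 were 3.10 and 2.11 and those of replicates 3 and 4 were 8.34 and 8.40. Vip was listed at 0 throughout, so its difference from Vipr1, -0.71 on average, only restates the level of Vipr1. Adcyap1 lay under Vipr1 in 3 of 4, with a difference of -0.25 ± 0.43 that is smaller than its SD. Differences that involve genes near 0 depend on the pseudocount, and with 0.1 in place of 1 that of Sct and Sctr was 8.36 and that of Adcyap1 and Vipr1 -0.65.

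Between peptides, Gcg exceeded Sct in 4 of 4 libraries by 3.32 ± 3.13, and Gip in 3 of 4 by 2.20 ± 2.84, the exception being replicate 1. Without replicate 2 these differences were 1.85 and 0.82, respectively. Gip and Sct differed by 1.12 ± 1.72, with Gip higher in replicates 1 and 2 and lower in replicates 3 and 4, and without replicate 1 the difference was 0.34. The exact sign-flip test over 4 libraries cannot give a p under 0.13 (rounded), so none of the 10 differences could pass. Adjusted over the 10, p was 0.179 for the 7 differences with 1 direction in every library, among them that of Vip and Vipr1, whose direction the zeros fix, and 0.313 to 0.500 for the other 3.

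**Figure D3:**
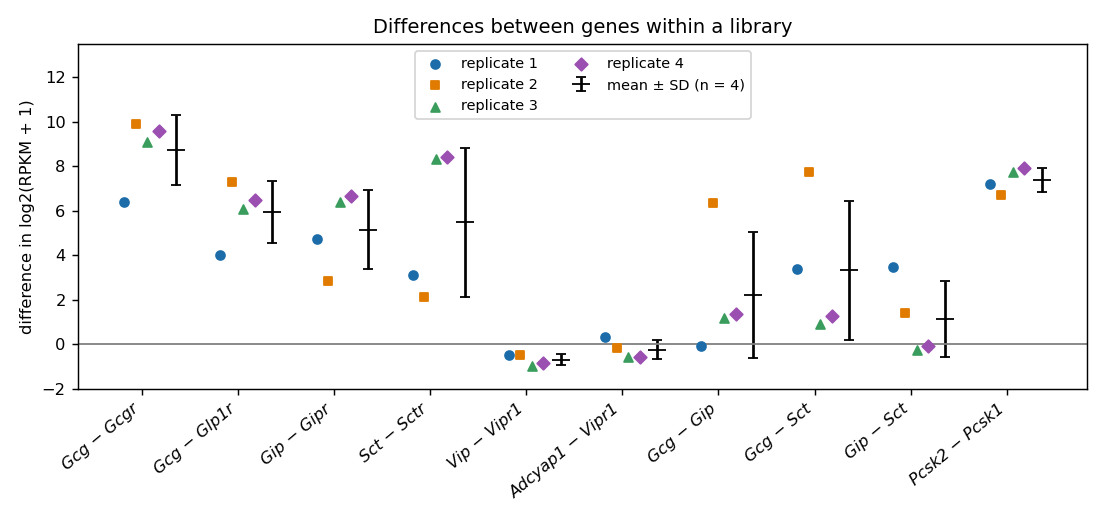
Difference in log2(RPKM + 1) between genes of the same library, with 1 point per replicate and the mean ± SD (n = 4) beside them. The 4 differences between an abundant peptide and its receptor lie above 0 in every library, and the values of Sct minus Sctr form a low pair (2.11 and 3.10) and a high pair (8.34 and 8.40).

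Among genes with a mean of at least 1 RPKM, those nearest to each of these genes in profile were found as the smallest root mean square difference of centred log2(RPKM + 1) over the 4 libraries, a description only. Nearest to Gcg were Timp1, a metalloproteinase inhibitor, Hpn, a membrane serine protease, and Tff2, a trefoil peptide, at 0.27, 0.28 and 0.30. Tff2 stood at 29.1, 480, 216 and 249 RPKM, with the lowest library again replicate 1 and the highest replicate 2. Nearest to Gip were Nup62cl, Ripk3, a kinase of necroptosis, and Ndn, an imprinted gene, at 0.44, 0.53 and 0.56. Nearest to Sct were Chga, the granule protein chromogranin A, Vsig2 and Ghrl, the ghrelin gene, at 0.87, 1.06 and 1.11. Chga stood at 33.1, 23.7, 471 and 470 RPKM. Glp1r was nearest to Coasy, Txlna and Dph1 at 0.01 each, and Gipr to St6galnac4, Selenbp1 and Ralgds at 0.02, 0.03 and 0.04. On this scale Glp1r and Gipr varied less than the 3 peptides (SD 0.35 and 0.54, n = 4), so small distances were easier to reach. The pseudocount of 1 compresses low levels, and St6galnac4 ran from 0.21 to 1.9 RPKM. Among the 424 genes whose SD was at least 1, the nearest to Glp1r was Nfkbie at 0.57 and to Gipr Fah at 0.45.

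**Figure D4:**
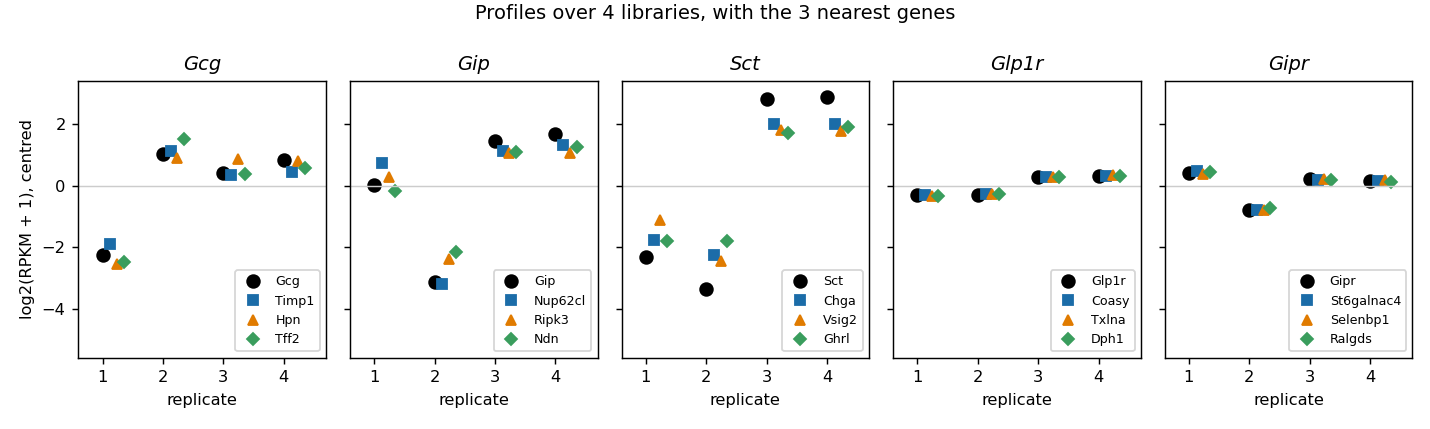
Centred log2(RPKM + 1) of Gcg, Gip, Sct, Glp1r and Gipr in replicates 1 to 4 (black circles) with the 3 genes nearest in profile (coloured symbols, shifted sideways). Gcg is lowest in replicate 1, Gip and Gipr in replicate 2, and Sct is low in both.

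The convertase of the alpha-cell route was far more abundant than that of the L-cell route. Pcsk2 stood at 161, 104, 623 and 640 RPKM and Pcsk1 at 0.10, 0, 1.95 and 1.67 RPKM. Both were higher in replicates 3 and 4 than in replicates 1 and 2. The share of all genes that split the libraries this way was not counted. In log2(RPKM + 1) Pcsk2 exceeded Pcsk1 by 7.39 ± 0.54, with this direction in 4 of 4 libraries (SD, n = 4; exact sign-flip permutation p = 0.13). Pcsk1 passed in neither direction (limma, adjusted p = 0.519).

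Of 13 genes that process or break down these peptides, 7 lay above 1 RPKM, 3 below and 3 in neither direction, with a median of 3.25 RPKM. Of all genes tested 65.0% lay above and 26.1% below. Cpe, the carboxypeptidase that trims basic residues, was highest at 2750, 3670, 4576 and 5140 RPKM. Pam, the enzyme that amidates the C termini of secretin, VIP and GLP-1, stood at 29.9, 38.9, 38.2 and 39.9 RPKM and varied little between libraries. Ece1, an endopeptidase, was at 377, 213, 517 and 514 RPKM and Furin, a convertase of the constitutive pathway, at 37.4, 57.1, 34.4 and 34.5 RPKM. Dpp4, which inactivates GLP-1 and GIP, was at 2.79, 2.49, 0.99 and 0.88 RPKM. It differed from 1 RPKM in neither direction (limma, adjusted p = 0.130). Its values in replicates 1 and 2 were the higher ones, the reverse of Sct and Pcsk2. The 3 genes below 1 RPKM were Scg5, the chaperone of PCSK2, Pcsk5 and Mme, the protease neprilysin.

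**Figure D5:**
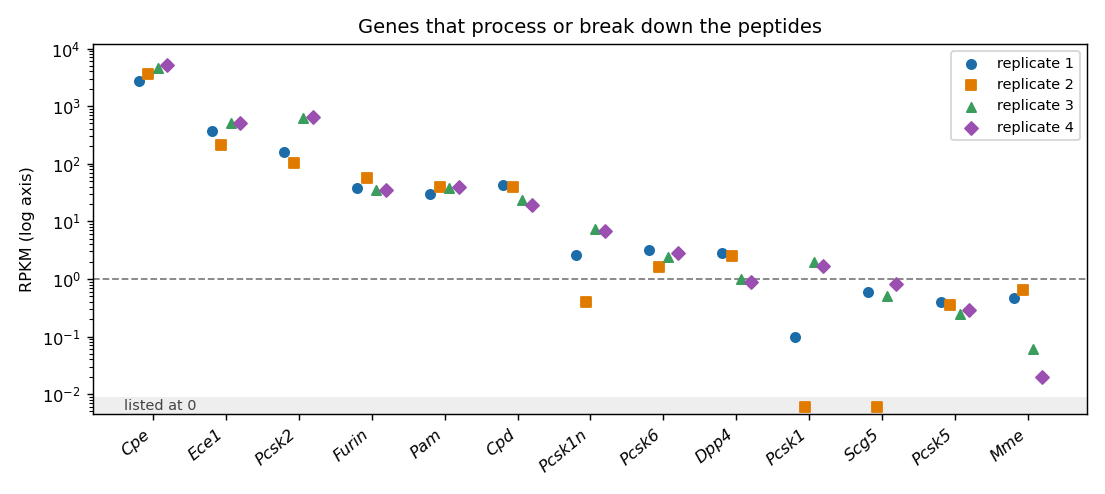
RPKM of 13 processing and breakdown genes by library on a log axis, ordered by mean. Points are libraries, the dashed line is 1 RPKM and the grey band holds values listed at 0. Pcsk2 lies at 104 RPKM or more in each library and Pcsk1 at 1.95 RPKM or less.

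Of 18 transcription factors known from cells that make glucagon, GIP or secretin, 11 lay above 1 RPKM, 5 below and 2 in neither direction, with a median of 2.90 RPKM. Those shares are close to the 65.0% above and 26.1% below among all genes tested. Pdx1 and Pax6 stood at 3180 ± 829 and 1663 ± 433 RPKM (SD, n = 4). Pdx1 and PAX6 were delivered to the cells, and the values do not separate delivered from endogenous transcripts. Insm1, a zinc finger factor of endocrine cells, stood at 179, 153, 139 and 135 RPKM and Foxa2 at 49.9, 27.3, 26.6 and 28.7 RPKM. Irx2, a factor of alpha cells, stood at 0.33, 0.11, 0.41 and 0.60 RPKM, and the test placed it under 1 RPKM (limma, adjusted p = 0.00129). Neurod1, an activator of the secretin gene, was at 5.85, 3.84, 15.2 and 13.7 RPKM. Its values were higher in replicates 3 and 4, the closest pair of libraries, and a link to Sct was not tested. Isl1, which acts on the proglucagon promoter, was at 0.43, 0.28, 1.19 and 1.16 RPKM, with no call either way (limma, adjusted p = 0.227).

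Downstream of the receptors, 22 of 26 genes of the stimulatory G protein and cAMP pathway lay above 1 RPKM, 2 below and 2 in neither direction, with a median of 9.12 RPKM, beside 65.0% above and 26.1% below among all genes tested. Gnas, the stimulatory alpha subunit, stood at 4080 ± 352 RPKM, Prkar1a, a regulatory subunit of protein kinase A, at 270 ± 38.0 RPKM and Prkaca, a catalytic one, at 46.0 ± 11.8 RPKM (SD, n = 4). Both genes below 1 RPKM encode adenylyl cyclases, Adcy4 at 0.035 ± 0.03 RPKM and Adcy7 at 0.765 ± 0.103 RPKM. Of the 3 receptor activity-modifying proteins, partners of some class B receptors, Ramp3 lay above 1 RPKM at 80.7 ± 26.4 RPKM, Ramp1 below at 0.478 ± 0.295 RPKM, and Ramp2 in neither direction at 0.835 ± 0.255 RPKM.

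Markers of cells that normally make these peptides or receptors were measured in the same libraries, and their counts stand beside 65.0% above and 26.1% below 1 RPKM among all genes tested. Of 6 alpha-cell markers other than Gcg, 2 lay above 1 RPKM and 3 below, and their summed level was 89.7, 90.1, 81.5 and 72.5 RPKM in replicates 1 to 4, while Gcg ranged from 95.7 to 942 RPKM. Slc7a2, an amino acid transporter, made up 50.4 to 73.0 RPKM of these sums and Ttr, transthyretin, 15.2 to 20.3 RPKM, and none of the other 4 lay above 1 RPKM by the test. Of 10 enteroendocrine markers other than Gip and Sct, 6 lay above and 2 below, with summed levels of 1436, 2132, 8711 and 9648 RPKM. This sum, like Sct, was higher in replicates 3 and 4, though not every gene of the list was. Sst accounted for 5573 and 6409 RPKM of the latter sums. Of 12 neuronal markers 5 lay above and 3 below, and their sum was 278, 203, 461 and 460 RPKM. Tubb3, a tubulin and 1 of the 5 above, stood at 86.9, 76.8, 197 and 194 RPKM. Chat, which marks cholinergic neurons, was listed at 0. Of 7 hepatocyte markers 2 lay above and 3 below, with sums of 16.3 to 68.4 RPKM. The 2 above were Alb at 2.63, 23.0, 30.3 and 35.2 RPKM and Apoa2 at 13.15, 17.54, 31.85 and 32.94 RPKM, while Cyp3a11 and Serpina1a were listed at 0. Of 9 beta-cell markers, 7 lay above and 2 below, summing to 3919, 9286, 9627 and 10731 RPKM. Of 7 measured immune markers, 1 lay above and 4 below. The marker above was Csf1r at 16.1, 17.0, 5.14 and 5.31 RPKM, while Cd3e and Emr1 were listed at 0. Of 8 smooth muscle and mesenchymal markers 1 lay above and 5 below, and of 5 endothelial markers 0 lay above and 4 below. The part of these cell types in the levels of the peptide and receptor genes was not tested.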

How the data were processed

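The authors deposited 1 table of RPKM values per gene and library, rounded to 2 decimals. The tools named in the submitters' processing notes are CASAVA 1.8.2 and Bowtie, with genome build mm9. How reads were counted, with which strand setting and what became of multiply matching reads, is not given in the sources used here. The table has 6 further per-sample columns that could not be tied to a sample here. They were left aside, so no comparison with other cells was made.

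From the RPKM values, log2(RPKM + 1) was tested against 1 RPKM with limma 3.58.1 in R 4.3.3 (moderated variances with a mean-variance trend, two-sided, Benjamini-Hochberg adjustment, threshold 0.05). The 3458 genes at 0 in every library were left out. A pseudocount of 1 compresses differences between low genes. Differences within libraries used an exact two-sided sign-flip test.

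RPKM holds no read totals. Of 993 olfactory receptor genes under 1100 bases, those above 0 and under 0.6 RPKM were used, 32, 27, 14 and 17 in replicates 1 to 4. Depth was estimated as the middle of the lowest unbroken range of depths at which these low values lay within 0.0055 RPKM of whole reads. That tolerance, wider than the rounding, was chosen after seeing how the low values lay. Levels worth 3 reads use these depths and GENCODE M21 transcript lengths (GRCm38), matched by RefSeq identifier for 98.1% of genes. They cover counting error only. No other gene of the table overlaps any of the 10 genes. In the table Vip lies on the minus strand, and in the RefSeq entry of GRCm38 on the plus strand.

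Genes named were all 10 members, the 5 other family genes, up to 4 of the highest and 3 of the lowest of each further list, and 9 further regulators and enzymes. Another 3 genes of these lists are not reported here and enter no list count or sum. List members named besides these, and Ins2, Krt7, Eif2s3y and Gapdh, were chosen after their values were seen. The genes and lists were chosen with earlier results of these data known. Alternatives were a pseudocount of 0.1, other filters, other scalings, no trend, and leaving out each library.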

Additional observations from a re-analysis of the deposited data

Results flagged for a closer look

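In 13 of the 85 genes examined, 1 library stood far from the other 3 by Dixon's criterion. It takes the gap to the nearest library as a share of the range. The 85 cover most, but not all, of the genes named in the text or picked by the naming rule. Chance alone passes that criterion in about 1 in 20 groups of independent values. Replicates 3 and 4 were closer to each other than any other pair, so that rate may not hold here. The share of all genes that meet the criterion was not counted. None of the 10 peptide and receptor genes had such a library. Replicate 2 was the low library for the delivered factors Pdx1 and Neurog3, Pdx1 at 1948 RPKM against 3465 to 3739 RPKM in the others and Neurog3 at 1290 RPKM against 2268 to 2444 RPKM. It was also low for Crtc1 (5.80 RPKM, others 9.89 to 10.4 RPKM) and for Fah (3.56 RPKM, others 16.9 to 18.8 RPKM). The same library was high for Furin, at 57.1 RPKM against 34.4 to 37.4 RPKM, for Crem, at 9.03 RPKM against 2.14 to 2.82 RPKM, and for Cftr, at 1.5 RPKM against 0.01 to 0.18 RPKM. Replicate 1 was low for Ins2, at 1091 RPKM against 3704 to 4240 RPKM, and for Hpn, at 0.71 RPKM against 16.6 to 17.6 RPKM. It was high for Foxa2, a forkhead factor of endoderm, at 49.9 RPKM against 26.6 to 28.7 RPKM. Hpn and Fah had been picked for a profile like that of Gcg and of Gipr. Adcy4, an adenylyl cyclase, was at 0.08 RPKM in replicate 3, against 0.02 RPKM in each of the others. With those tied, any different value meets the criterion, and the Adcy4 values are worth only an estimated 1.5 to 6.8 reads. Ghrh was at 0.12 RPKM in replicate 1 and Glp2r at 0.01 RPKM in replicate 2, each listed at 0 elsewhere. With 3 libraries at 0 any value meets the criterion, and these are worth an estimated 1.5 and 1.1 reads, under the 3 reads that a count of 0 allows.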

How the results depend on the processing

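Gcg, Gip, Sct and Glp1r lay above 1 RPKM and Adcyap1 below it under all 11 alternatives run for each, and Gcgr and Sctr below it under the 10 alternatives in which they were tested. The number of the 10 genes below 1 RPKM was 1 in place of 4 when only genes with a mean of at least 0.1 RPKM were tested, since Gcgr and Sctr were then left out and Vipr1 had an adjusted p of 0.0541. The number above was 4 to 5 and the number below 3 to 4 when single libraries were left out, the fifth being Gipr without replicate 2. Vipr1 lost its call with a pseudocount of 0.1 (adjusted p = 0.0804), with no filter (0.0677), with a common upper quartile (0.0511), with no trend (0.0644) and without replicate 1 or 2 (0.140 and 0.146). All 10 differences between genes kept their direction under the 7 alternatives run for each, that of Vip and Vipr1 being fixed by the zeros of Vip. Averaging replicates 3 and 4 into 1 library, an alternative chosen after seeing the data, left 4 genes above and 4 below. No paired analysis was possible because there is only 1 group. Of all genes, 4423 lay below 1 RPKM as reported, 1889 when a mean of at least 0.1 RPKM was required and 7777 with no filter, since those filters remove or add low genes. Depth limits Vip, Sctr, Gcgr, Ghrh, Ghrhr and Glp2r, whose values are worth at most an estimated 6.7 reads, and rounding to 2 decimals limits them further.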

Other observations

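The list of cAMP signalling genes holds 3 transcription factors that respond to cAMP and 3 of their coactivators, which did not share 1 pattern over the libraries. They were singled out after their values were seen, and differences between the libraries were not tested. Creb1, the cAMP response element binding protein, stood at 13.9, 16.8, 4.96 and 3.52 RPKM in replicates 1 to 4, and the related Atf1 at 9.82, 10.6, 6.64 and 5.43 RPKM. Crem, a cAMP-responsive modulator, was at 2.14, 9.03, 2.82 and 2.28 RPKM, with replicate 2 apart from the others. Of the coactivators, Crtc3 was at 40.2, 52.6, 20.7 and 19.4 RPKM, Crtc1 at 10.3, 5.80, 10.4 and 9.89 RPKM and Crtc2 at 20.3, 13.3, 17.0 and 17.3 RPKM. Creb1, Atf1 and Crtc3 were thus higher in replicates 1 and 2, while Crtc1 and Crtc2 were lowest in replicate 2. The share of all genes with either pattern was not counted.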
